A study of Mus musculus with 8 samples.

Results

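The 44 genes described here are interferon-stimulated genes, chosen as a list of gene symbols and looked up in the gene count tables of mouse hearts 1 and 3 days after myocardial infarction. All 44 were among the 24062 genes shared by the 2 tables, and all 44 passed the filter on low counts that left 15508 genes to test. The list holds names alone and sets no threshold on a measured value. The hearts came from male C57BL/6 mice aged 8 to 12 weeks. In the infarct (MI) groups the left anterior descending coronary artery had been tied, and in the sham groups the same surgery was done without tying it. Ischaemic tissue or the matching sham tissue of the left ventricular free wall was taken at 1 or 3 days, each time with its own sham group, and each of the 4 groups held 2 mice and so 2 libraries of rRNA-depleted total RNA. The tissue was bulk, flash-frozen and pulverised, and all 8 animals had been operated on, so no unoperated heart is part of the comparisons. Within each group the letters A and B follow column order, since the sample numbers in the column names match no label. Both sham columns of 1 day bear the same sample number, while the transcript table of that day gives its sham columns different ones. The counts of these 2 columns were not a copy of each other: they were equal in 2.61% of the 15508 genes, and a chi-square test of A against B averaged 17.4 per gene, where sampling noise alone gives about 1 and the other groups gave 23.4 to 65.4.

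Interferons are cytokines, and cells release those of type I when receptors in the cytosol or in endosomes meet foreign or misplaced nucleic acid. Type I interferons bind a receptor made of IFNAR1 and IFNAR2, and the kinases JAK1 and TYK2 then activate STAT2, which joins IRF9 in a complex that binds the interferon-stimulated response element (ISRE) in promoters. Interferon gamma uses IFNGR1, IFNGR2, JAK1 and JAK2 and acts mostly at the gamma-activated site (GAS). The genes switched on include sensors of nucleic acid, enzymes that degrade or edit RNA and nucleotides, membrane proteins that hold back viruses, GTPases that attack vacuoles, and IRF7, which widens the response. In the infarcted heart, macrophages that take up debris of dead cells are a known source of such a response.

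At 1 day, 17 of the 44 genes were higher in MI than in sham and 2, Bst2 and Igtp, were lower, at an adjusted p of 0.05 or less in edgeR's quasi-likelihood test. Of all 15508 genes tested, 19.3% were called higher and 19.7% lower in that comparison. By 3 days, 32 of the 44 were higher and 0 lower, against 31.7% and 23.7% of all genes. The same 17 genes were higher on both days. A further 14 were called higher at 3 days without a call at 1 day, Bst2 was lower at 1 day and higher at 3 days, Igtp was lower at 1 day without a call at 3 days, and 11 had no call on either day. The median log2 fold change of the 44 genes was 0.41 at 1 day and 1.20 at 3 days, beside 0.12 and 0.16 for all genes tested.

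No member was called lower at 3 days by edgeR, DESeq2 or limma-voom, and 0 members lay below sham with an unadjusted p under 0.05. Of the 19 calls at 1 day, those of Ddx58 and Oasl1 were kept under all 14 alternative analyses, and of the 32 calls at 3 days 19 were kept. With scaling by library size alone, 21 members were higher and 1 lower at 1 day, where 4262 of all genes were then higher and 2044 lower in place of 2993 and 3058. That scaling moved the median log2 fold change of all genes by 0.28 at 1 day and 0.26 at 3 days. Fewer members were called higher at 1 day in every fit that left out 1 library. The 3-day libraries share in the estimate of spread. The fewest were left without a sham library of 1 day. Both lower calls at 1 day were lost without either sham library of that day. That of Igtp was also lost without MI library B of 1 day or either MI library of 3 days. Fewer of all genes were called higher, and fewer lower, at 1 day in these fits too, but more were without MI library A of 1 day. Without either MI library of 3 days fewer members, and fewer of all genes, were called higher at 3 days. At 3 days Gbp5 was called lower without MI library A of 1 day. Oas2 was called lower there without sham library A of 3 days, and Ifi205 without sham library B of 3 days.

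**Figure D1:**
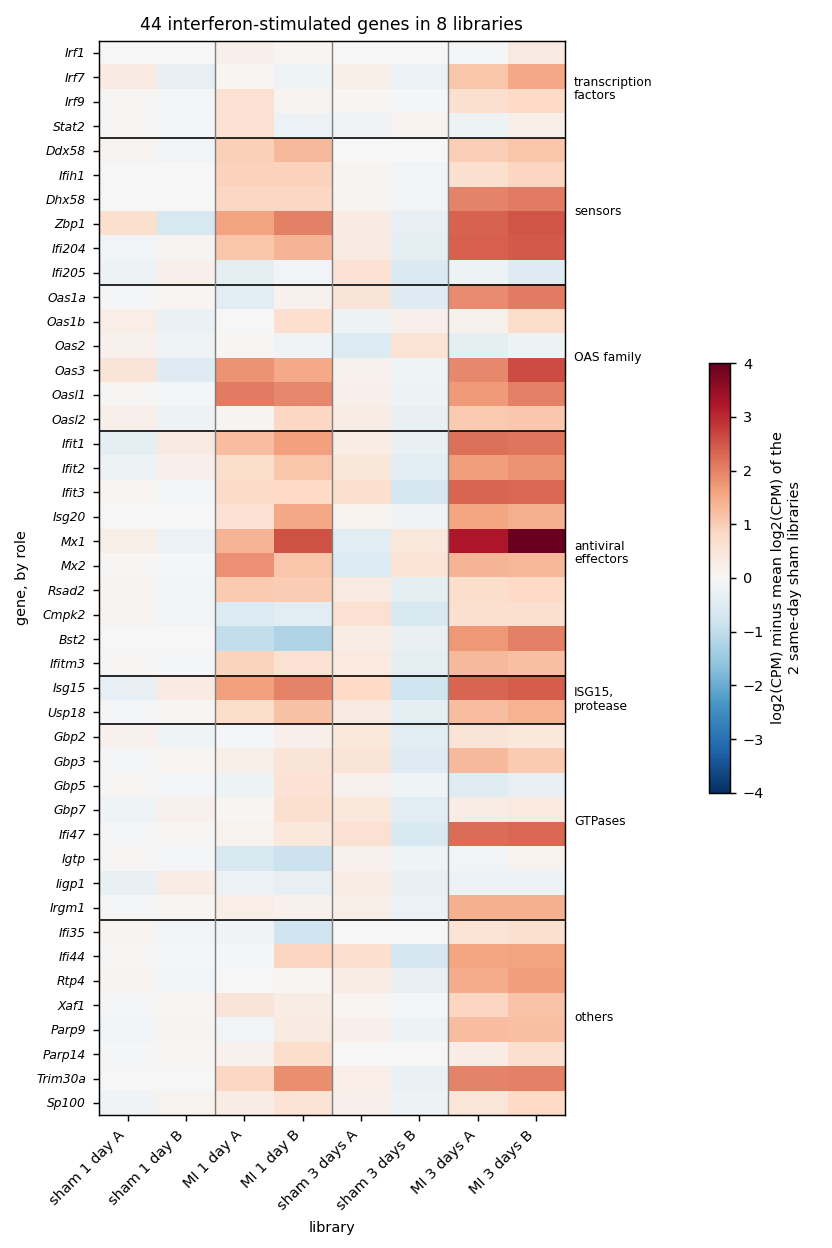
Heat map of the 44 genes (rows, grouped by role) in the 8 libraries (columns), coloured by log2 counts-per-million (CPM, on TMM-scaled totals) minus the mean log2 CPM of the 2 sham libraries of the same day. Most rows turn red in both MI libraries of 3 days, Mx1 most of all, while at 1 day fewer rows are red and Bst2 and Igtp are among the blue ones.

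The CPM summed over the 44 genes was 889 and 911 in the sham libraries of 1 day and 1169.7 and 1293 in the MI libraries of 1 day. At 3 days it was 1247 and 886 in sham and 2071 and 2203 in MI. The MI libraries were above their own sham libraries at each time point, and the MI libraries of 3 days were above every other library. The sham libraries of 3 days differed most from each other: 35 of the 44 genes were higher in library A than in library B, with a median ratio of 1.41, while 52.9% of all tested genes were higher in A, with a median ratio of 1.01.

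Marker genes of several cell types differed between the groups. Of all genes tested, 19.3% were called higher and 19.7% lower at 1 day, and 31.7% and 23.7% at 3 days. Summed over 5 markers of leukocytes, all of them read in every library, the level was 133 to 262 CPM in the sham libraries, 513 and 631 at 1 day of MI and 1622 and 1689 at 3 days. For 8 markers of monocytes and macrophages the sums were 530.3 to 1018 CPM in sham, 870.2 and 897 at 1 day of MI and 5643 and 5646 at 3 days, with 4 of 8 called higher at 1 day and 8 of 8 at 3 days. Most of the 3-day sum was Lyz2, at 4198 and 4283 CPM. At 1 day Itgam, Ccr2, Ly6c2 and Fcgr1 were higher by 10.5-fold, 7.74-fold, 6.54-fold and 2.49-fold, while Lyz2 and Csf1r read 0.661 and 0.598 of sham without a call. For 6 neutrophil markers they were 105 to 208 CPM in sham, 950.2 and 1938 at 1 day of MI and 435 and 809.5 at 3 days. For 6 cardiomyocyte markers they were 51796 to 78864 CPM in sham, 26814 and 34963 at 1 day of MI and 2968 and 3310.0 at 3 days, all 6 called lower on both days. For 5 fibroblast markers the sums were 1170.3 to 2794 CPM in sham, 1108.5 and 1118 at 1 day of MI and 3733 and 3349.7 at 3 days, with 1 lower at 1 day (Col1a1, 0.162 of sham) and 3 of 5 higher at 3 days (Col1a1 by 10.3-fold). For 6 endothelial markers they were 824 to 1041 CPM in sham, 1299.6 and 1179.9 at 1 day of MI and 1023 and 817 at 3 days, with 3 higher and 1 lower at 1 day and 2 higher and 2 lower at 3 days. No marker of these 6 lists was at 0 in any library. The sham libraries of 3 days again stood apart, with leukocyte sums of 262 CPM in A and 133 in B, and sums over 5 fibroblast markers of 2794 and 1170.3. Sums over 8 markers of T, B and NK cells were 2.35 to 4.65 CPM in sham. In MI they were 3.00 and 14.4 CPM at 1 day and 9.46 and 12.3 at 3 days. Of 7 tested, 2 were called higher at 1 day and 1 at 3 days. These counts, and the 3-day counts of the endothelial markers, do not set those lists apart from all genes. Over 4 markers of plasmacytoid dendritic cells the sums were 0.861 to 2.07 CPM in sham. In MI they were 2.11 and 5.28 CPM at 1 day and 3.40 and 4.01 at 3 days, with 2 of 3 tested called higher at 3 days. In the former list Cd3g was at 0 in sham library B of 1 day and Cd3e in sham library A of 3 days. In the latter Klk1 was at 0 in 6 libraries. Both highest sums were in MI library B of 1 day, which had reads in 94.4% of 1122 olfactory receptor genes. The part of these shifts in the results on the 44 genes was not tested, and in bulk tissue a change in the number of cells of a type and a change in RNA per cell cannot be told apart.

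**Figure D2:**
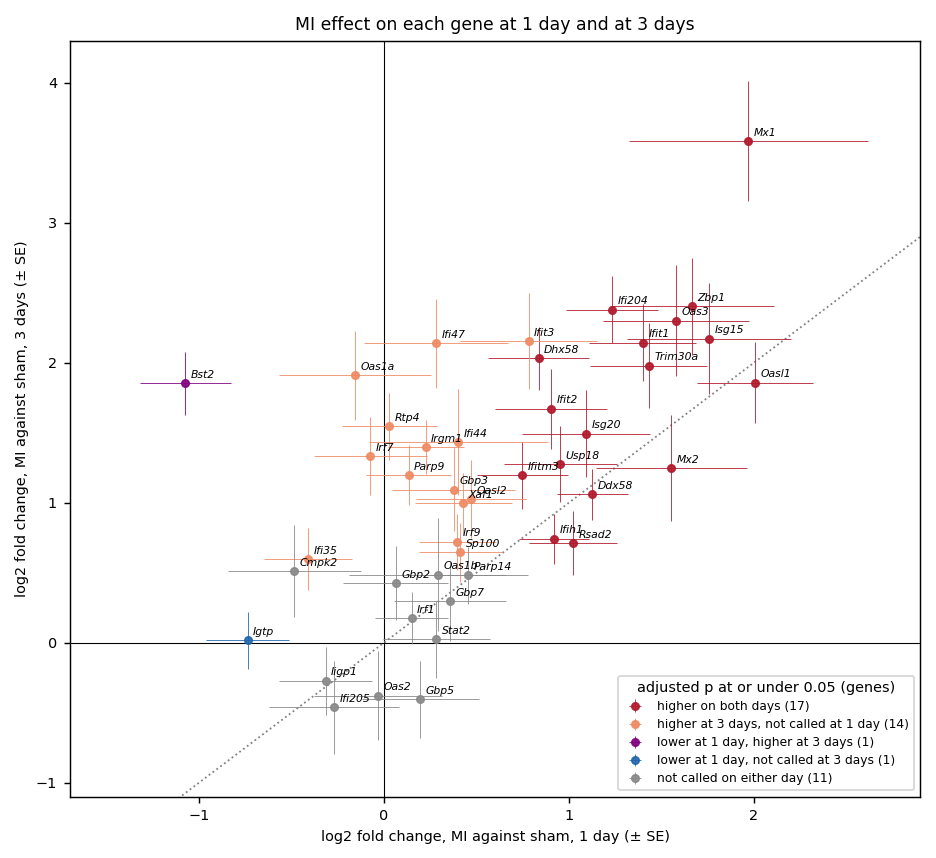
Log2 fold change of MI against sham at 1 day (horizontal axis) and at 3 days (vertical axis) for each of the 44 genes, with standard errors as bars and colours for the pattern of calls; the dotted line marks equal values. Bst2 lies far to the upper left of the line, and of the 17 genes higher on both days Oasl1, Mx2, Ddx58, Ifih1 and Rsad2 lie below it.

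Promoter sequence was looked at because members share a known upstream pathway yet fell into different patterns of calls. RefSeq windows on GRCm38.p6, from 250 bases before to 50 bases after the start of transcription, were at hand for 32 of the 44 genes, as 40 windows. The ISRE was searched as GAAANNGAAA and the GAS as TTCNNNGAA, on both strands. The GAS reads alike on both strands, and ISRE matches that overlap were each counted. An ISRE match was present in 19 of the 32 genes (59.4%), against 3.99% of all 27025 genes with a window. By window it was present in 20 of the 40, against 3.44% of all 32851 windows. A GAS match was present in 10 of the 32 genes (31.2%), against 9.55% of all genes with a window, and in 10 of the 40 windows, against 8.3% of all windows. The 60-base stretches below are written 5′ to 3′ in the direction of transcription, with ISRE matches of either strand in capitals. Isg15 and Ifit1 stand for genes higher on both days, Oas1a and Gbp3 for genes called higher at 3 days alone, Bst2 and Igtp for the pair that was lower at 1 day, and Gbp2 for a neighbour of Gbp3 with no call.
Isg15, chr4:156200856-156200915, minus strand: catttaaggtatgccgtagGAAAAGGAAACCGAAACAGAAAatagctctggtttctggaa
Ifit1, chr19:34640769-34640828, plus strand: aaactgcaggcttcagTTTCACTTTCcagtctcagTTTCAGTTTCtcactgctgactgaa
Oas1a, chr5:120907526-120907585, minus strand: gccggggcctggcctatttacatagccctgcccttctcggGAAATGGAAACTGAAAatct
Gbp3, chr3:142559977-142560036, plus strand: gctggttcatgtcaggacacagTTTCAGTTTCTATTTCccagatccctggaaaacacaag
Bst2, chr8:71537565-71537624, minus strand: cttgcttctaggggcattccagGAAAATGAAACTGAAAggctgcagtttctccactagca
Igtp, chr11:58199496-58199555, plus strand: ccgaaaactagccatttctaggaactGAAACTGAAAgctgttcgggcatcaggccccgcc
Gbp2, chr3:142620579-142620638, plus strand: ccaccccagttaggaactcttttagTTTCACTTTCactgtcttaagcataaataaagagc
The stretch of Isg15 holds 3 overlapping ISRE matches and that of Ifit1 holds 2 separate ones. Those of Oas1a, Gbp3 and Bst2 hold 2 overlapping matches each, and those of Igtp and Gbp2 hold 1. By pattern of calls, an ISRE match was found in 8 of 11 genes with a window that were higher on both days, in 4 of 12 called higher at 3 days alone, in 5 of 7 without a call, and in Bst2 and Igtp. A match was thus present in genes that rose, in genes that fell at 1 day and in genes with no call. Such a match is a description of the letters in the window and not evidence that a factor bound there.

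**Figure D3:**
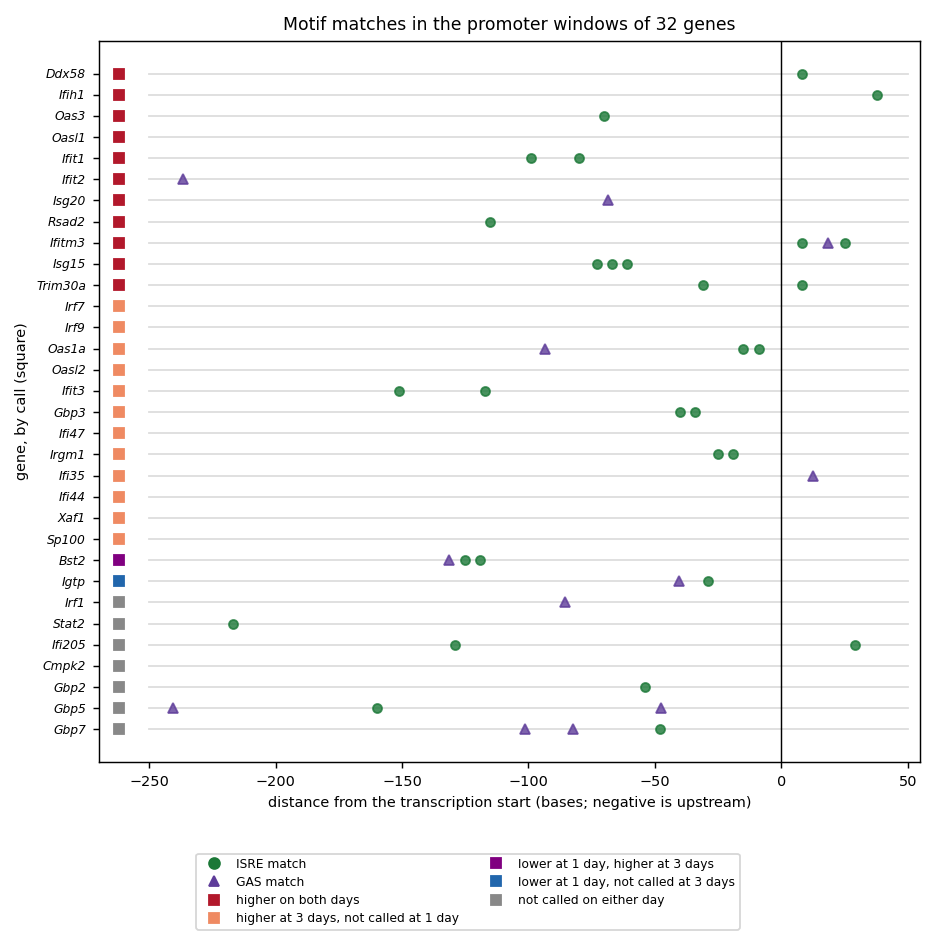
Positions of ISRE matches (circles) and GAS matches (triangles) in the promoter windows of 32 genes, as distance in bases from the start of transcription, with a square for each gene's pattern of calls and matches of all windows of a gene on its line. Matches of both kinds occur in every pattern, and 5 of the 7 genes without a call carry an ISRE match.

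Among the 4 transcription factors, Irf7 and Irf9 rose at 3 days and none was called at 1 day. With 31.7% of all genes higher at 3 days and 19.3% at 1 day, these counts do not set the role apart. Irf7 encodes the factor that drives most interferon alpha transcription and is itself induced by interferon. Its level was 20.5 and 12.8 CPM in the sham libraries and 17.2 and 14.2 in the MI libraries at 1 day, where the groups overlapped (adjusted p = 0.866). At 3 days it was 19.4 and 14.0 CPM in sham and 35.5 and 48.3 in MI, with both MI libraries above both sham libraries. That is a log2 change of 1.33 (SE 0.28, adjusted p = 0.00269). The MI effect on Irf7 was larger at 3 days than at 1 day by 1.40 on the log2 scale (SE 0.41, adjusted p = 0.0351). Irf9, the DNA-binding subunit of the type I interferon complex, was at 35.1 and 32.0 CPM in sham and 51.8 and 58.7 CPM in MI at 3 days, without overlap (log2 fold change 0.72, SE 0.20, adjusted p = 0.0122). At 1 day Irf9 stood at 32.9 and 30.5 CPM in sham and 48.4 and 34.4 CPM in MI, with an adjusted p of 0.158. The call of Irf9 was lost with transcript reads and without any 1 of the 4 libraries of 3 days (adjusted p = 0.0519 to 0.333), and it was called at 1 day without MI library B of that day or with scaling by library size alone (adjusted p = 0.0215 to 0.0233). For Irf7 the call at 3 days was lost without MI library B (adjusted p = 0.0796), and that for the difference in 6 of the 13 alternative analyses run for it (adjusted p = 0.0615 to 0.244). Irf1, the early factor of interferon gamma signalling, and Stat2, a subunit of the type I complex, had no call on either day: Irf1 ranged from 34.6 to 51.9 CPM over the 8 libraries and Stat2 from 18.3 to 32.9 CPM.

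Where 19.3% of all genes were higher at 1 day and 31.7% at 3 days, 5 of 6 sensors of nucleic acid were higher on both days. They were Ddx58 (RIG-I) and Ifih1 (MDA5), which sense viral RNA, Dhx58 (LGP2), which tunes them, Zbp1, which senses Z-form nucleic acid and can start necroptosis, and Ifi204, a DNA-binding protein of the PYHIN family. Zbp1 had the largest change of the role at both times, from 3.13 and 1.26 CPM in sham to 6.08 and 8.11 CPM in MI at 1 day (log2 fold change 1.67, SE 0.44, adjusted p = 0.0158). At 3 days after surgery it was at 4.06 and 2.60 CPM in sham and 16.6 and 18.7 CPM in MI (log2 fold change 2.40, SE 0.35, adjusted p = 0.000271). On neither day did the groups overlap, although the sham libraries of 1 day were uneven, and without sham library B of 1 day the adjusted p at 1 day was 0.14.

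Ifi204 gave the highest CPM of the sensors in MI at 3 days. It was at 18.3 and 21.2 CPM in sham and 42.5 and 50.7 in MI at 1 day, and at 27.7 and 16.9 CPM in sham and 114 and 118 in MI at 3 days. The MI libraries were well clear of the sham libraries at both times, with log2 fold changes of 1.23 (SE 0.25, adjusted p = 0.0043) and 2.38 (SE 0.24, adjusted p = 3.04e-05). The effect on Ifi204 grew between the days by 1.15 (SE 0.34, adjusted p = 0.0358). For Dhx58 the sham libraries read 4.34 and 4.19 CPM and the MI libraries 7.62 and 7.62 at 1 day, and 5.23 and 4.40 and 19.1 and 20.3 at 3 days. Here too the groups were apart on both days, and the log2 fold change went from 0.84 (SE 0.27, adjusted p = 0.0369) to 2.03 (SE 0.23, adjusted p = 5.63e-05), a difference of 1.19 (SE 0.36, adjusted p = 0.0373). Ddx58 and Ifih1 had similar values at both times instead: log2 fold changes of 1.12 and 1.06 for Ddx58 and of 0.92 and 0.74 for Ifih1, with no call for a difference between the days. Ifi205, the close relative of Ifi204, had no call on either day and read 87.1 and 38.8 CPM in sham and 50.6 and 40.9 in MI at 3 days, where both MI libraries lay between the sham libraries. The 2 genes are similar in sequence, and how reads that fit both were counted was not tested. Several of these calls were lost in fits that left 1 library in a group. The 1-day call of Ifi204 was lost without sham library A of 1 day, and that of Ifih1 without either sham library of 1 day. Without either of these sham libraries fewer of all genes were called at 1 day too. The 3-day call of Ifih1 was lost without sham library B or either MI library of 3 days (adjusted p = 0.0521 to 0.242). The 1-day call of Dhx58 was lost in 11 of the 14 alternative analyses (adjusted p = 0.0661 to 0.204), and the differences between the days, for which 13 alternatives were run, in 8 each for Dhx58 (adjusted p = 0.0558 to 0.22) and Ifi204 (adjusted p = 0.052 to 0.197).

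The oligoadenylate synthetases make a short nucleotide chain that activates RNase L, while Oasl1 lacks that activity. Of the 6 genes, Oas3 and Oasl1 rose on both days, Oas1a and Oasl2 were called higher at 3 days only, and Oas1b and Oas2 had no call. The shares of all genes called higher were 19.3% at 1 day and 31.7% at 3 days. Oasl1, which restrains translation of Irf7, showed the largest change of all 44 genes at 1 day: 2.72 and 2.58 CPM in sham against 11.3 and 9.95 CPM in MI. The MI libraries were 4.02-fold above sham, without overlap (log2 fold change 2.01, SE 0.31, adjusted p = 0.0013). At 3 days its levels were 3.04 and 2.28 CPM in sham and 8.60 and 10.7 CPM in MI (log2 fold change 1.86, SE 0.29, adjusted p = 0.000427). The MI libraries of both days overlapped, and the difference of the effects was not called (adjusted p = 0.835).

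Oas1a behaved otherwise. At 1 day it read 4.98 and 5.51 CPM in sham and 3.81 and 5.90 CPM in MI, and the MI libraries enclosed the sham libraries (adjusted p = 0.786). At 3 days the values were 6.89 and 3.40 CPM in sham and 18.1 and 20.5 CPM in MI. Both MI libraries were then far above sham, a log2 change of 1.91 (SE 0.32, adjusted p = 0.000703). The difference of the MI effects was 2.06 (SE 0.52, adjusted p = 0.0182), and it was not called without any 1 of sham A, sham B or MI A of 1 day or MI A or MI B of 3 days (adjusted p = 0.0532 to 0.0988). Oas3, the largest synthetase, was at 5.73 and 2.76 CPM in sham and 13.7 and 11.4 in MI at 1 day and at 2.78 and 2.23 and 9.46 and 15.1 at 3 days, with MI above sham each time. Its log2 fold changes were 1.58 (SE 0.39, adjusted p = 0.0121) and 2.30 (SE 0.39, adjusted p = 0.000793), and without sham library B of 1 day the first had an adjusted p of 0.127. Oasl2 had the highest mean CPM of the family, with 22.1 and 14.7 CPM in sham and 37.2 and 37.7 CPM in MI at 3 days (log2 fold change 1.02, SE 0.28, adjusted p = 0.0108), and the groups did not overlap. At 1 day Oasl2 read 20.7 and 15.3 CPM in sham and 19.4 and 31.3 CPM in MI, where 1 MI library lay within the sham range (adjusted p = 0.232). Its call at 3 days was lost without sham library B or either MI library of 3 days (adjusted p = 0.0804 to 0.113).

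Antiviral effectors held the widest spread of responses. Of 10 genes, 7 rose on both days, Ifit3 was called at 3 days alone, Bst2 changed direction, and Cmpk2 had no call. Among all genes, 19.3% were higher and 19.7% lower at 1 day, and 31.7% were higher at 3 days. The dynamin-like GTPase gene Mx1, which restricts influenza viruses and of which C57BL/6 mice carry a defective copy, had the largest MI effect of all 44 genes at 3 days. Its level was 1.10 and 0.804 CPM in sham and 2.43 and 5.53 in MI at 1 day, then 1.23 and 2.23 CPM in sham and 15.7 and 25.7 in MI at 3 days. The groups were apart on both days, with a log2 change of 1.97 (SE 0.65, adjusted p = 0.0369) at 1 day. By 3 days it was 3.58, or 12.0-fold (SE 0.43, adjusted p = 8.6e-05). The 1-day call rested on few reads, 19 and 14 in the sham libraries and 30 and 45 in the MI libraries, and was lost in 10 of the 14 alternative analyses (adjusted p = 0.0517 to 0.21).

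Bst2 encodes tetherin, which ties budding virus particles to the cell surface. The gene was at 31.4 and 32.6 CPM in the sham libraries and 16.3 and 13.9 CPM in the MI libraries of 1 day. At 3 days it was at 29.7 and 19.6 CPM in sham and 80.9 and 97.2 CPM in MI. MI was thus below sham at 1 day and above it at 3 days, each time without overlap, with log2 fold changes of -1.07 (SE 0.25, adjusted p = 0.00819) and 1.85 (SE 0.23, adjusted p = 9.29e-05). The difference between them, 2.93 (SE 0.33, adjusted p = 0.000459), was the largest of the 44 genes. It was also the only such difference among the members to stay called under every alternative analysis run for it, although the call at 1 day was lost without sham library A or B (adjusted p = 0.0533 to 0.0561). Ifitm3, a membrane protein that stops virus fusion and the most abundant member by CPM, read 78.8 and 74.5 CPM in sham and 141 and 116 in MI at 1 day and 99.1 and 57.9 and 186 and 174 at 3 days. MI lay above sham on both days (log2 fold change 0.75, SE 0.24, adjusted p = 0.036, and 1.19, SE 0.24, adjusted p = 0.00222). The 1-day call of Ifitm3 was lost in 6 alternative analyses (adjusted p = 0.0838 to 0.237) and the 3-day call without MI library A of 3 days (adjusted p = 0.0518).

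The IFIT genes encode proteins that bind viral RNA lacking host-type caps, and all 3 rose at 3 days, by 2.14 for Ifit1, 1.67 for Ifit2 and 2.15 for Ifit3 on the log2 scale. At 1 day Ifit1 and Ifit2 were called, at 1.40 and 0.90. Ifit3 read 14.9 and 13.2 CPM in sham and 24.1 and 24.3 CPM in MI on that day, apart but with an adjusted p of 0.121. It was called at 1 day in 4 alternative analyses, with library size alone, with transcript reads and without either sham library of 3 days (adjusted p = 0.0329 to 0.0481). Rsad2 (viperin), Isg20, an RNA exonuclease, and Mx2 were also higher on both days, with log2 fold changes of 1.02, 1.09 and 1.55 at 1 day and 0.71, 1.49 and 1.24 at 3 days. Cmpk2, the nucleotide kinase gene next to Rsad2, had no call: it read 21.5 and 18.5 CPM in sham and 13.8 and 14.9 CPM in MI at 1 day, and 21.6 and 9.13 and 21.7 and 22.0 CPM at 3 days. Sham library A of 3 days lay beside the MI libraries for Cmpk2, and without it the gene was called higher (adjusted p = 0.00496). Of the 1-day calls, that of Ifit1 did not hold without sham library A (adjusted p = 0.0727), that of Rsad2 without either sham library (adjusted p = 0.0613 to 0.119) and that of Mx2 without either sham library or MI library A (adjusted p = 0.103 to 0.114). Those of Ifit2 and Isg20 were lost in 8 and 10 alternative analyses (adjusted p = 0.0515 to 0.297 and 0.0515 to 0.165). At 3 days Mx2 lost its call in 5 (adjusted p = 0.0604 to 0.147) and Rsad2 in 7 (adjusted p = 0.0615 to 0.328).

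Isg15 encodes a ubiquitin-like protein that is joined to other proteins, and Usp18 the protease that removes it and also shuts off IFNAR2. Both rose on both days, beside 19.3% of all genes higher at 1 day and 31.7% at 3 days. Isg15 was at 2.49 and 3.90 CPM in sham and 9.64 and 12.3 CPM in MI at 1 day, and at 4.86 and 1.64 CPM in sham and 14.3 and 15.0 CPM in MI at 3 days. No MI library overlapped with sham, and the log2 fold changes were 1.76 (SE 0.44, adjusted p = 0.0124) and 2.17 (SE 0.40, adjusted p = 0.00116). Without sham library A of 1 day the first of these calls was lost (adjusted p = 0.119). Usp18 read 7.06 and 7.46 CPM in sham and 12.2 and 16.3 CPM in MI at 1 day and 11.0 and 6.58 and 20.1 and 22.3 CPM at 3 days, also apart. Its log2 fold changes were 0.95 (SE 0.30, adjusted p = 0.0333), lost in 8 of the 14 alternative analyses (adjusted p = 0.0583 to 0.196), and 1.27 (SE 0.27, adjusted p = 0.00288), lost without MI library B of 3 days (adjusted p = 0.0518). No difference between the days was called for either gene.

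**Figure D4:**
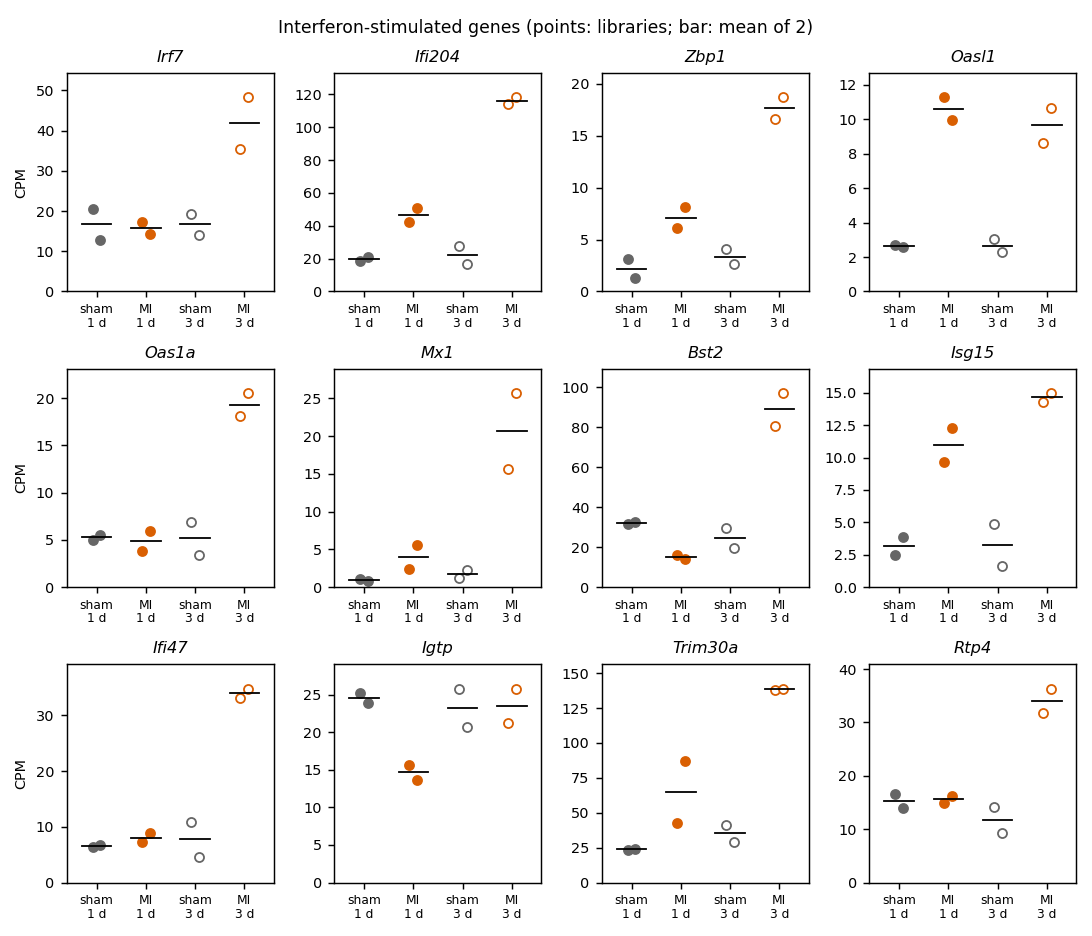
CPM (vertical axes, each from 0) of 12 of the genes in each library, with grey points for sham, orange points for MI, filled points for 1 day, open points for 3 days, and a bar for the mean of 2 libraries. Bst2 and Igtp dip in MI at 1 day, Oasl1 and Isg15 are raised at both times, and Irf7, Oas1a, Ifi47 and Rtp4 stand far above sham in MI at 3 days and close to it at 1 day.

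The GTPases are best known as targets of interferon gamma that coat vacuoles holding pathogens. Of 8 genes, Igtp was lower at 1 day and the other 7 had no call. At 3 days Gbp3, Ifi47 and Irgm1 were higher and 5 had no call. Of all genes, 19.7% were lower at 1 day and 31.7% higher at 3 days, so these counts do not set the role apart. The median log2 fold change of the 8 was 0.21 at 1 day and 0.36 at 3 days. Igtp (Irgm3) was at 25.2 and 23.9 CPM in sham and 15.6 and 13.6 CPM in MI at 1 day, without overlap (log2 fold change -0.74, SE 0.22, adjusted p = 0.0276). At 3 days the range of its sham libraries, 25.8 and 20.7 CPM, overlapped with that of MI, 21.2 and 25.8 CPM (adjusted p = 0.953). Scaling by library size alone, or leaving out either sham library or MI library B of 1 day or either MI library of 3 days, ended the call at 1 day (adjusted p = 0.0532 to 0.134).

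Ifi47, another GTPase of the IRG family, read 6.37 and 6.77 CPM in sham and 7.29 and 8.84 CPM in MI at 1 day (adjusted p = 0.591). On the later day it read 10.8 and 4.67 CPM in sham and 33.2 and 34.8 CPM in MI, with MI far above both sham libraries. The log2 fold change was 2.14 (SE 0.32, adjusted p = 0.000348), larger than at 1 day by 1.86 (SE 0.50, adjusted p = 0.0245). Irgm1, which regulates the other IRG proteins, went the same way, with a log2 fold change of 1.40 at 3 days (SE 0.19, adjusted p = 0.000211) and a difference of 1.17 between the days (SE 0.28, adjusted p = 0.0151). Both differences lost their call in 6 alternative analyses (adjusted p = 0.0653 to 0.12 for Ifi47 and 0.0506 to 0.132 for Irgm1). Iigp1 had the highest mean CPM of the role and no call: 49.4 and 74.7 CPM in sham and 51.6 and 47.9 in MI at 1 day, and 101 and 67.4 and 70.1 and 69.6 at 3 days. The MI and sham libraries of Iigp1 overlapped at both times (adjusted p = 0.345 and 0.371).

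Of the 8 remaining genes, only Trim30a was called at 1 day, and 7 of the 8 were higher at 3 days. Of all genes, 19.3% were higher at 1 day and 31.7% at 3 days, so the 1-day count does not set this role apart. Trim30a, a ring-finger protein that dampens signalling from Toll-like receptors, was at 23.6 and 24.2 CPM in sham and 42.6 and 87.3 CPM in MI at 1 day. At 3 days it was at 41.3 and 29.0 CPM in sham and 138 and 139 CPM in MI. The groups were apart on both days, though the MI libraries of 1 day were far from each other (log2 fold change 1.43, SE 0.32, adjusted p = 0.0067 at 1 day, and 1.98, SE 0.31, adjusted p = 0.000416 at 3 days). Without either sham library of 1 day the adjusted p at 1 day was 0.0632 to 0.0693. A close copy, Trim30d, lies in the same family, and how reads that fit both genes were counted was not tested. Rtp4, a chaperone for receptors at the cell surface, read 16.6 and 14.0 CPM in sham and 15.0 and 16.2 in MI at 1 day, where the groups overlapped (adjusted p = 0.942). On the later day Rtp4 read 14.2 and 9.23 CPM in sham and 31.8 and 36.3 in MI, without overlap. The log2 fold change at 3 days was 1.54 (SE 0.24, adjusted p = 0.000427), above that of 1 day by 1.52 (SE 0.35, adjusted p = 0.013), which was not called without sham library A of 1 day or either MI library of 3 days (adjusted p = 0.0603 to 0.107).

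Parp9 and Parp14 encode ADP-ribosyltransferase family proteins whose genes are neighbours. Parp9 rose at 3 days by 1.20 on the log2 scale (SE 0.22, adjusted p = 0.00113), and its effect grew between the days by 1.06 (SE 0.31, adjusted p = 0.0355), a call lost in 8 alternative analyses (adjusted p = 0.0579 to 0.184). Parp14, the gene with the highest CPM of the 8 in sham, read 65.9 and 69.0 CPM in sham and 76.5 and 109 in MI at 1 day and 77.3 and 79.5 and 97.3 and 121 at 3 days. Its MI libraries were above sham each time, but the adjusted p was 0.111 and 0.0696. Scaling by library size alone called it on both days (adjusted p = 0.0279 and 0.0172), as did leaving out MI library A of 1 day for 1 day (adjusted p = 0.0191) and MI library B of 1 day for 3 days (adjusted p = 0.0159). The other calls at 3 days were Ifi44 at 1.43, Xaf1, which counters an inhibitor of apoptosis, at 1.00, the nuclear body gene Sp100 at 0.64, and Ifi35 at 0.60 on the log2 scale. Ifi35 was close to the threshold (adjusted p = 0.0432) and lost its call in 11 of the 14 alternative analyses (adjusted p = 0.056 to 0.499), and the call for its difference between the days, 1.01 (SE 0.32, adjusted p = 0.0491), in 9 (adjusted p = 0.0527 to 0.308). Sp100 lost its call in 7 (adjusted p = 0.0619 to 0.544), Ifi44 without either MI library of 3 days (adjusted p = 0.0602 to 0.0716) and Xaf1 without MI library B of 3 days (adjusted p = 0.123). Calls gained at 1 day were those of Sp100 with library size alone and with transcript reads (adjusted p = 0.0466 to 0.049), Xaf1 with transcript reads (adjusted p = 0.036) and Ifi35, as lower, without MI library A of 1 day (adjusted p = 0.00745).

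Tested directly, 10 of the 44 genes had a larger MI effect at 3 days than at 1 day and 0 a smaller one, against 13.2% and 11.3% of all genes. They were Irf7, Dhx58, Ifi204, Oas1a, Bst2, Ifi47, Irgm1, Ifi35, Rtp4 and Parp9, 1 or more from every role but that of Isg15 and Usp18. Among the 14 genes called at 3 days alone, 7 had such a difference, so for the other 7 a change between the days was not shown. No member lay on the smaller side with an unadjusted p under 0.05, and DESeq2 and limma-voom called none there and 9 each on the larger side. The count of 10 fell to 4 with transcript reads, where 1489 of 14567 genes had a larger effect. It also fell without either sham library of 1 day, either MI library of 3 days, sham library B of 3 days or MI library A of 1 day. Fewer of all genes had a larger effect in these fits too, but more did without MI library A of 1 day. Of the 10, only Bst2 kept its call in every alternative analysis run. Without sham library A of 3 days Ifit2, Ifit3, Cmpk2, Gbp3 and Ifi44 gained such a call, and Ifi35 lost its own.

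Compared with each other, the MI libraries of 3 days were higher than those of 1 day in 21 of the 44 genes and lower in 0. Of all genes tested, 23.4% were higher and 22.0% lower. Without MI library B of 3 days fewer members, and fewer of all genes, were called higher. DESeq2 called 19 higher and 0 lower, limma-voom 21 and 0, and no member was lower with an unadjusted p under 0.05. The sham libraries of the 2 days differed in no member and in 0.0% of all genes in either direction by edgeR, and DESeq2 and limma-voom called none of the 44, though DESeq2 called 26 of all genes higher and 18 lower. Here 4 members were higher at 3 days with an unadjusted p under 0.05 and 0 were lower.

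Genes of the set that lie next to each other did not all share a pattern. There were 7 groups of members within 200 kb of each other on GRCm38.p6. On chromosome 3 (142496934 to 142638008), Gbp3 had a log2 fold change of 1.09 at 3 days (SE 0.30, adjusted p = 0.0112), with 35.2 and 17.0 CPM in sham and 60.6 and 50.8 CPM in MI. Its neighbours had no call, with 47.1 and 26.1 CPM in sham and 50.6 and 47.4 in MI for Gbp2, 10.8 and 8.49 and 6.88 and 7.68 for Gbp5, and 61.6 and 34.2 and 57.0 and 60.5 for Gbp7. Sham library A was the higher of the pair for all 4 genes, and without it Gbp2 and Gbp7 were called higher, at 0.91 and 0.78 on the log2 scale (adjusted p = 0.0172 and 0.045). The call of Gbp3 was lost without sham library B or either MI library of 3 days or with only the 2 groups compared (adjusted p = 0.0541 to 0.153). On chromosome 5 (120730333 to 120907544), Oas3 and Oas1a were called at 3 days, while Oas2 and Oas1b, with 12.8 and 27.5 and 1.87 and 2.44 CPM in sham and 14.7 and 16.3 and 2.42 and 3.57 CPM in MI, were not. Rsad2 and Cmpk2 on chromosome 12, and Parp9 and Parp14 on chromosome 16, were likewise a called and an uncalled gene at 3 days. In contrast Mx1 and Mx2 on chromosome 16, Oasl1 and Oasl2 on chromosome 5, and Ifit1, Ifit2 and Ifit3 on chromosome 19 were all called higher at 3 days. No test of one neighbour against another was made. Genes of these families are alike in sequence, and how reads that fit several of them were counted was not tested.

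Levels of different genes can be compared only per length of transcript, which the authors' transcript table allows. In RPKM (reads per kilobase of transcript, scaled to depth like CPM), averaged over the 4 sham libraries, Ifitm3 was highest at 94.3, followed by Ifi205 at 49.3, Bst2 at 28.3 and Irf1 at 19.8, and the lowest were Oas3 at 0.796, Ifi47 at 0.659 and Mx1 at 0.558. In MI at 3 days the order on the same scale began with Ifitm3 at 196, Bst2 at 81.1, Ifi204 at 62.9 and Ifit3 at 39.2. Ifi204 ranked 8 of 44 in sham and 3 in MI at 3 days, Zbp1 ranked 36 and 20, Mx1 ranked 44 and 35, and Rsad2 ranked 16 and 23. The SD over the 2 MI libraries of 3 days was 3.93 for Ifitm3 and 10.8 for Bst2.

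Transcripts of the interferons themselves were barely seen. Of 18 interferon genes, 1 (Ifnk) passed the filter on low counts, with no call, and the summed level of all 18 was 0.107 to 0.737 CPM in 7 libraries and 7.00 CPM in MI library B of 1 day. Ifnb1 had 0, 1, 0, 4, 0, 0, 0 and 0 reads in the 8 libraries in the order sham A and B and MI A and B of 1 day, then of 3 days. Ifng had 0, 0, 0, 3, 0, 0, 0 and 0 in the same order. A level of 3 counts was 0.102 to 0.369 CPM, and levels below it rest on fewer reads than that. The library with most interferon reads, MI library B of 1 day, also had reads in 94.4% of 1122 olfactory receptor genes, beside 52.0% in sham library B of 1 day, 24.1% in MI library A of 1 day and 4.46% to 8.65% in the other 5. That library had the lowest total, 7382490 counts, of a range up to 25041386. The part of such scattered reads in the interferon counts was not tested.

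Of 9 receptor and kinase genes, 1 was higher and 2 lower at 1 day, and 4 were higher and 3 lower at 3 days. Beside the shares of all genes called (19.3% higher and 19.7% lower at 1 day, 31.7% and 23.7% at 3 days) these counts do not set the list apart. Ifnar1 read 48.1 and 50.2 CPM in sham and 65.5 and 65.6 CPM in MI at 1 day (adjusted p = 0.0877), and 59.0 and 46.9 and 161 and 172 CPM at 3 days, when MI stood far above sham (log2 fold change 1.65, SE 0.17, adjusted p = 3.72e-05). Its partner Ifnar2 read 51.3 and 42.0 CPM in sham and 93.2 and 102 CPM in MI at 3 days, also apart (log2 fold change 1.06, SE 0.18, adjusted p = 0.000866). Its 1-day adjusted p was 0.934. For both chains the effect was larger at 3 days, by 1.24 for Ifnar1 (SE 0.25, adjusted p = 0.0066) and by 1.04 for Ifnar2 (SE 0.26, adjusted p = 0.019). These differences were lost without either MI library of 3 days for Ifnar1 (adjusted p = 0.0606 to 0.0892) and in 5 alternative analyses, each leaving out 1 library, for Ifnar2 (adjusted p = 0.07 to 0.208), and Ifnar1 was called at 1 day with library size alone or with transcript reads (adjusted p = 0.0164 to 0.0295).

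The 2 chains of the interferon gamma receptor parted. Ifngr1, the ligand-binding chain, was at 108 and 88.7 CPM in sham and 189.7 and 220.0 CPM in MI at 3 days (log2 fold change 1.06, SE 0.19, adjusted p = 0.00112), with an adjusted p of 0.358 at 1 day, and without MI library B of 3 days its adjusted p at 3 days was 0.0683. Ifngr2, the signalling chain, was at 262 and 265 CPM in sham and 96.7 and 83.0 CPM in MI at 1 day, and at 283 and 240.4 and 151 and 141 CPM at 3 days. It was lower in every MI library than in any sham library (log2 fold change -1.55, SE 0.17, adjusted p = 0.000278 at 1 day, and -0.84, SE 0.17, adjusted p = 0.00184 at 3 days). Ifnlr1, the chain specific to interferon lambda, fell at 3 days from 4.97 and 5.09 CPM in sham to 0.860 and 0.680 CPM in MI (log2 fold change -2.71, SE 0.46, adjusted p = 0.000785), and its effect differed between the days by -3.07 (SE 0.62, adjusted p = 0.00715). Jak2 was higher on both days, with 56.5 and 66.7 CPM in sham and 214 and 217 in MI at 1 day and 70.5 and 65.1 and 186 and 159 at 3 days. The groups were far apart (log2 fold change 1.81, SE 0.17, adjusted p = 0.00018, and 1.35, SE 0.17, adjusted p = 0.000122).

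**Figure D5:**
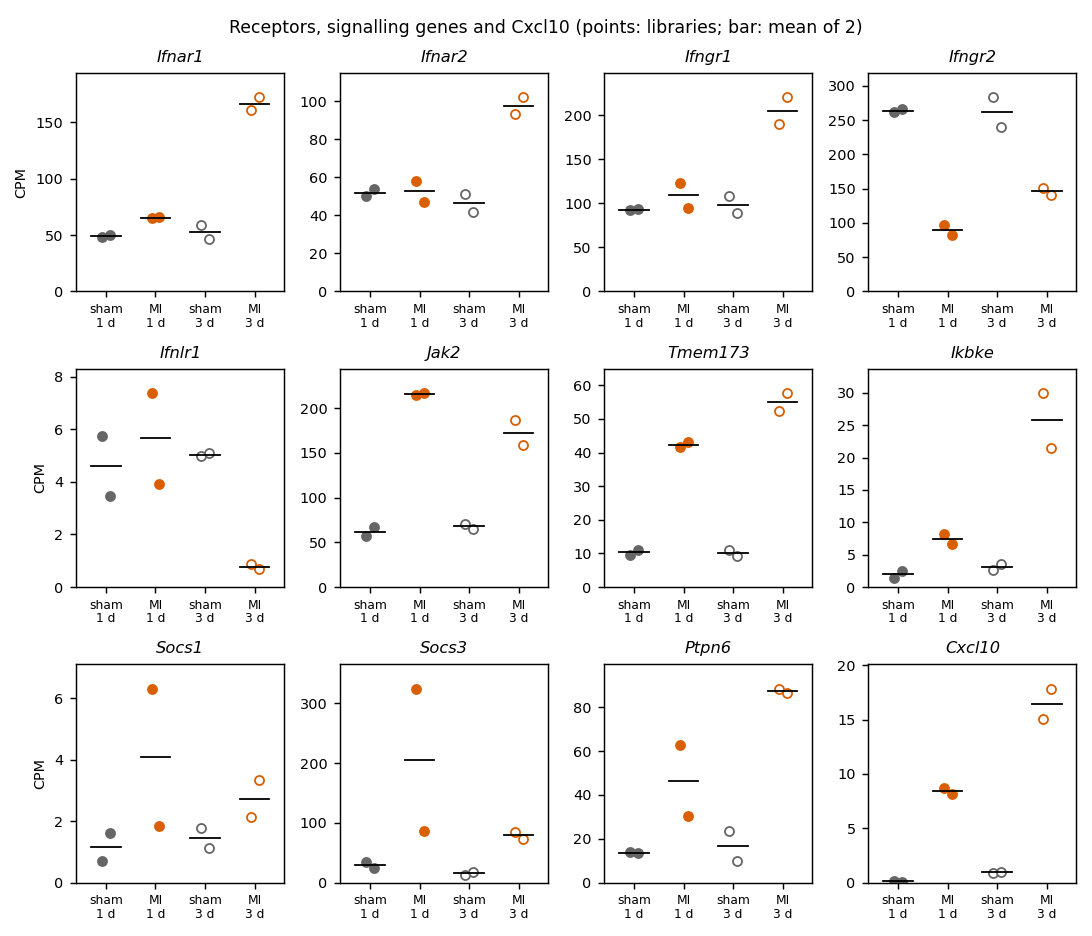
CPM (vertical axes, each from 0) of 12 genes upstream of, or beside, the 44 in each library, drawn like the plot of 12 members. Ifnar1, Ifnar2 and Ifngr1 are raised in MI at 3 days, Ifngr2 is lower in MI on both days, and Cxcl10 is near 0 in sham.

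Among 19 genes that sense nucleic acid or induce interferon and are not among the 44, 8 were higher and 1 lower at 1 day, and 11 were higher and 1 lower at 3 days, where 19.3% and 31.7% of all genes were higher and 19.7% and 23.7% lower. The lower gene was Mavs on both days, with log2 fold changes of -1.86 (SE 0.20, adjusted p = 0.000236) and -2.41 (SE 0.20, adjusted p = 8.11e-06). Tmem173, which encodes STING, the adaptor for cytosolic DNA, read 9.49 and 11.1 CPM in sham and 41.6 and 43.1 CPM in MI at 1 day and 11.1 and 9.18 and 52.4 and 57.7 CPM at 3 days. It was 4.11-fold and 5.42-fold above sham with no overlap (log2 fold change 2.04, SE 0.20, adjusted p = 0.000195, and 2.44, SE 0.20, adjusted p = 8.11e-06). Ikbke, a kinase that activates IRF3 and IRF7, had the largest change of the list at 3 days, from 2.56 and 3.50 CPM to 30.0 and 21.5 CPM (log2 fold change 3.08, SE 0.32, adjusted p = 3.34e-05), and was called at 1 day as well, at 1.93 (SE 0.41, adjusted p = 0.00531, or 0.0857 without sham library A of 1 day).

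Of 13 genes that restrain interferon signalling or sensing, 5 were higher and 3 lower at 1 day, and 6 were higher and 1 lower at 3 days. The 3 lower genes at 1 day are near the 19.7% of all genes, and the shares higher in all genes were 19.3% and 31.7%. Socs1, the inhibitor of JAK kinases most tied to interferon, read 0.695 and 1.61 CPM in sham and 6.32 and 1.84 CPM in MI at 1 day. The lower MI library was little above the higher sham library (log2 fold change 1.93, SE 0.66, adjusted p = 0.043), and at 3 days the adjusted p was 0.201. Its 1-day call was lost in 10 of the 14 alternative analyses (adjusted p = 0.062 to 0.571). Socs3, which restrains interleukin-6 type receptors, had the largest change of the list at 1 day, with 33.7 and 24.5 CPM in sham and 325 and 86.2 CPM in MI. Both MI libraries were above sham but far from each other (log2 fold change 2.83, SE 0.51, adjusted p = 0.0026). At 3 days the change was 2.37 (SE 0.52, adjusted p = 0.00332, or 0.0531 without sham library A of 3 days). Ptpn6, a phosphatase of blood cells, had the largest change at 3 days, 23.3 and 9.98 CPM in sham and 88.5 and 86.4 CPM in MI, far apart (log2 fold change 2.39, SE 0.40, adjusted p = 0.000638), and was higher at 1 day by 1.79 (SE 0.41, adjusted p = 0.00793). That last call was lost without either sham library or MI library A of 1 day (adjusted p = 0.0644 to 0.0852).

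A list of 59 other interferon-induced genes gave 13 higher and 6 lower at 1 day, and 30 higher and 1 lower at 3 days, of 56 tested. Of all genes 19.3% and 19.7% were called at 1 day and 31.7% and 23.7% at 3 days, so the 1-day count of higher genes is near the background. Their median log2 fold change was 0.35 at 1 day and 0.95 at 3 days. Cxcl10, a chemokine for T cells, was nearly absent from sham at 1 day, at 0.174 and 0.0574 CPM, and read 8.67 and 8.11 CPM in MI (log2 fold change 6.11, SE 0.53, adjusted p = 8.54e-05). The sham value rested on 3 and 1 reads, so the size of this fold change is poorly fixed. At 3 days it read 0.908 and 1.01 CPM in sham and 15.1 and 17.9 CPM in MI, again far apart (log2 fold change 4.09, SE 0.31, adjusted p = 2.49e-06). Ms4a4c, a membrane gene of monocytes, had the largest change of the list at 3 days, from 2.83 and 2.18 CPM to 43.3 and 52.0 CPM (log2 fold change 4.25, SE 0.26, adjusted p = 2.42e-06). Its 1-day change was 1.63 (SE 0.46, adjusted p = 0.0206), and the effects differed by 2.62 (SE 0.58, adjusted p = 0.0105). The 1-day call was lost in 9 of the 14 alternative analyses (adjusted p = 0.0502 to 0.202) and that for the difference without either sham library of 1 day or MI library B of 3 days (adjusted p = 0.0581 to 0.158).

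The authors' deposited table of each day, made with DESeq2 on that day's libraries, called 8 of the 44 genes higher and 1 lower at 1 day at an adjusted p of 0.05 or less, where it called 11.0% of all genes with an adjusted p higher and 14.1% lower. For 3 days, where its fold changes are sham over MI by the counts and were turned here to MI over sham, the authors' deposited table called 29 of the 44 higher and 0 lower, against 27.6% and 28.3% of all genes. In the authors' deposited table, Bst2 was the gene called lower at 1 day, with a log2 fold change of -1.07, and at 3 days, turned likewise, it was 1.65.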

How the data were processed

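Total RNA of 8 left ventricles was depleted of rRNA and sequenced. Read counts per gene symbol were deposited by the authors in 1 table for each day; per the submitters' processing notes, the tools were HTSeq, DESeq2, TopHat2 2.0.14, SAMtools 0.1.2, Bowtie2 2.2.5 and FastQC and the build was mm10, with the strand setting not given in the sources used here. Transcript read counts with lengths and DESeq2 log2 fold changes with an adjusted p-value were also deposited by the authors.

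The 24062 genes of both tables were joined, and 15508 were kept by filterByExpr. One edgeR 4.0.16 quasi-likelihood model (R 4.3.3, robust, TMM scaling) took the 8 libraries in 4 groups, and p-values were 2-sided and adjusted by Benjamini-Hochberg over all 15508 genes at a threshold of 0.05. The procedure was tested on simulated data. DESeq2 1.42.0 and limma 3.58.1 (voom), library-size scaling, no filter, only the 2 groups compared, summed transcript reads and leaving out each library were alternatives. CPM uses TMM-scaled totals. Totals were 7382490 to 25041386 counts, and 3 counts equal 0.102 to 0.369 CPM.

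The genes and lists were chosen with earlier results of these data known. Described in full for each role are the called genes with the largest change at each day and the largest difference between the days. The gene with the highest mean CPM over the 8 libraries is described too. In the pathway lists the named genes are Ifnb1, Ifng, the IFNAR and IFNGR chains, Socs1 and Cxcl10, and the called gene of each list with the largest change at each day. Other genes, such as Ifi205, Cmpk2, Ifit3, Oas2, Mavs and the neighbours of Gbp3, were picked after their values were seen. One gene of the pathway lists is not reported here. Promoter windows are RefSeq sequence on GRCm38.p6, and 12 genes without one were not searched.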

Additional observations from a re-analysis of the deposited data

Results flagged for a closer look

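For 10 of the 44 genes the effect of MI differed between 3 days and 1 day by a test of the difference itself (edgeR's quasi-likelihood test, Benjamini-Hochberg adjusted over all genes tested), always with the larger value at 3 days. Of all genes tested, 13.2% had a larger effect at 3 days and 11.3% a smaller one. Of the 10 calls, only that of Bst2 was kept in every alternative analysis run. On the log2 scale the effect at 3 days minus that at 1 day was 2.93 for Bst2 (SE 0.33, adjusted p = 0.000459), 2.06 for Oas1a (SE 0.52, adjusted p = 0.0182), 1.86 for Ifi47 (SE 0.50, adjusted p = 0.0245) and 1.52 for Rtp4 (SE 0.35, adjusted p = 0.013). It was 1.40 for Irf7, 1.19 for Dhx58, 1.17 for Irgm1, 1.15 for Ifi204, 1.06 for Parp9 and 1.01 for Ifi35, with adjusted p from 0.0151 to 0.0491.

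Among the genes of the pathway named beside them, the effect differed between the days by 2.62 for Ms4a4c (SE 0.58, adjusted p = 0.0105), 1.24 for Ifnar1 (SE 0.25, adjusted p = 0.0066) and 1.04 for Ifnar2 (SE 0.26, adjusted p = 0.019). The effect on Ifnlr1 went the other way, with a difference of -3.07 (SE 0.62, adjusted p = 0.00715).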

How the results depend on the processing

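Leaving out 1 library at a time gave 4 to 15 members higher at 1 day in place of 17, 0 to 3 lower in place of 2, 20 to 33 higher at 3 days in place of 32, 0 to 1 lower in place of 0, 1 to 14 with a larger effect at 3 days in place of 10, and 11 to 26 higher in MI at 3 days than in MI at 1 day in place of 21. Without the low-count filter 11 members were higher at 1 day, scaling by library size alone left 1 lower there, the fit of only the 2 groups called 1 lower at 3 days (Gbp5), and transcript reads gave 4 larger effects at 3 days. The calls over all genes moved in these settings as well. The causes of these shifts were not tested.

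No called log2 fold change of a member changed sign under any of the 14 alternatives; the values given here, which had no call, did, as did those of other uncalled members. For Irf7 at 1 day (-0.07) the log2 fold change was 0.20 with library size alone and 0.0677 with transcript reads, and for Oas1a at 1 day (-0.16) it was 0.12 with library size alone. DESeq2, no filter and only the 2 groups gave -0.0135, -0.0684 and -0.0128 for Rtp4 at 1 day (0.03) and -0.0255, -0.0658 and -0.0218 for Ifnar2 at 1 day (0.02). For Igtp at 3 days (0.02), DESeq2 gave -0.12 and only the 2 groups -0.21. With 1 library left out, the 1-day values ranged from -0.44 to 0.25 for Irf7, -0.46 to 0.075 for Oas1a, -0.16 to 0.10 for Rtp4, -0.24 to 0.17 for Ifnar2, -0.067 to 0.41 for Ifngr1 and -0.31 to 0.73 for Ifnlr1. The 3-day values ranged from -0.92 to 0.24 for Ifi205, -0.82 to 0.29 for Oas2, -0.0567 to 0.78 for Gbp7, -0.35 to 0.19 for Igtp and -0.53 to 0.056 for Iigp1. With a library left out, the lone library of its group is assumed to vary like the other groups.

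No paired analysis was possible because the count columns carry no replicate number of the labels. Depth limits the interferon genes and low members such as Mx1, since 3 counts equal 0.102 to 0.369 CPM.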
